A study of Mus musculus with 8 samples.

Results

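Pyruvate dehydrogenase, the tricarboxylic acid (TCA) cycle and the reactions that feed and drain it were followed at the level of transcripts in the cerebral cortex of newborn mice, with 32 genes chosen by symbol. They are the genes of the pyruvate dehydrogenase complex and its kinases, of the cycle from citrate synthase to malate dehydrogenase, and of pyruvate carboxylation, malic enzymes, citrate cleavage and glutamate and aspartate conversion. Of the 32 genes, 31 had at least 1 probe under that symbol in the platform annotation, 39 probes in all among the 25697 on the array. The expression of Got1, the gene for the cytosolic aspartate transaminase, was not analysed here, since no probe carried its symbol. The groups were cortex null for estrogen-related receptor gamma (ERRγ-/-, called ERRγ-null here) and wild-type cortex, both taken at postnatal day 0, with 2 biological samples of each genotype. Illumina bead arrays measured every sample on 2 arrays, called first and b, so the study holds 8. The sources used here do not say how the null allele was made, which strain or sex the mice had, or whether a sample pooled animals. For that reason the spread among these 4 samples may not be that among animals, and part of it may be technical. The p-values rest on this spread as pooled mainly over all genes tested, more than on that of each gene alone.

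Pyruvate dehydrogenase, a large mitochondrial complex, turns pyruvate into acetyl-CoA and thereby commits carbon from glucose to oxidation. Its kinases switch it off by phosphorylation. The TCA cycle oxidises the acetyl group, and anaplerotic enzymes such as pyruvate carboxylase and glutamate dehydrogenase replace the intermediates that brain cells withdraw, chiefly to make glutamate, aspartate and GABA. ERRγ, encoded by Esrrg, is an orphan nuclear receptor known to activate genes of mitochondrial oxidative metabolism by binding DNA at the motif AAGGTCA. The comparison asked which transcripts of the newborn cortex differ without the receptor.

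The cortex label was borne out by its markers. Of 9 cortical neuron markers with a probe, 7 were above background on all 8 arrays, among them the cortical transcription factor genes Tbr1, Fezf2 and Bcl11b, and the probe of Neurod6 was above background on none. A probe counted as above background on an array when its detection p was under 0.05. Mean probe intensity before normalization was 547 to 639 on the ERRγ-null arrays and 390 to 565 on the wild-type arrays, and an array had between 11022 and 12013 probes above background. The single Esrrg probe was above background on no array of either genotype, so it does not check the genotype labels. The summed signal of meninges and fibroblast markers, most of it from Igf2, set the ERRγ-null samples apart from each other. The summed linear signal of the 7 such markers was 1502 and 2981 in ERRγ-null samples 1 and 2, against 1878 and 1732 in wild-type samples 1 and 2. Igf2 was the one member of that list above background on all 8 arrays, and Lum, Col1a1, Col3a1 and Ogn were above background on none. Igf2 lay at 10.34 and 11.37 in the ERRγ-null samples, against 10.66 and 10.55 in the wild-type samples. The part of this difference in the results was not tested. In bulk tissue, fewer cells of a type and less RNA per cell cannot be told apart.

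None of the 26 genes that could be tested passed the test for a difference between ERRγ-null and wild-type cortex, and Glud1, the glutamate dehydrogenase gene, came nearest. Values are normalized log2 intensities, differences are ERRγ-null minus wild type, and genes were tested with limma, with adjustment over all 8098 genes tested and a threshold of 0.05. By limma 0 of 26 passed, where 0.0123% of all genes tested did. An unadjusted p under 0.05 was reached by 1 of the 26, Glud1, or 3.85%, where 7.22% of all genes reached it. Glud1 lay lower in ERRγ-null cortex, and 3.62% of all genes were lower with such a p. Higher with such a p were 0 of the 26, where 3.61% of all genes were. The count at an unadjusted p under 0.05 turned on single samples. It was 5 of the 26 when ERRγ-null sample 2 was left out, where 629 of all 8098 genes reached it, and 2 when wild-type sample 1 was left out. It was 0 when ERRγ-null sample 1 or wild-type sample 2 was left out. The 26 differences had a median of 0.0053 and ran from -0.38 for Glud1 to 0.25 for Dlst. They split into 14 above and 12 below 0. With median scaling in place of quantile normalization, 22 lay above and 4 below 0, beside a median of 0.17 over all genes, and relative to that median 14 lay above and 12 below. The median of all genes was 0.0030, and the median size of a difference was 0.14 for the 26 genes and 0.12 for all genes. All 26 confidence intervals (95%) lay between -1 and 1, so that each excluded a doubling or halving of the signal. The same held for 8056 of all 8098 genes. Between -0.5 and 0.5 lay 14 of the 26 intervals, and 4800 of those of all 8098 genes. The smallest adjusted p was 0.636. Above background on all 8 arrays were 24 of the 26 genes, and 87.4% of all genes tested. An exact permutation test of 2 samples against 2 cannot go below p = 0.333, two-sided, so no single gene can pass by that test.

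**Figure D1:**
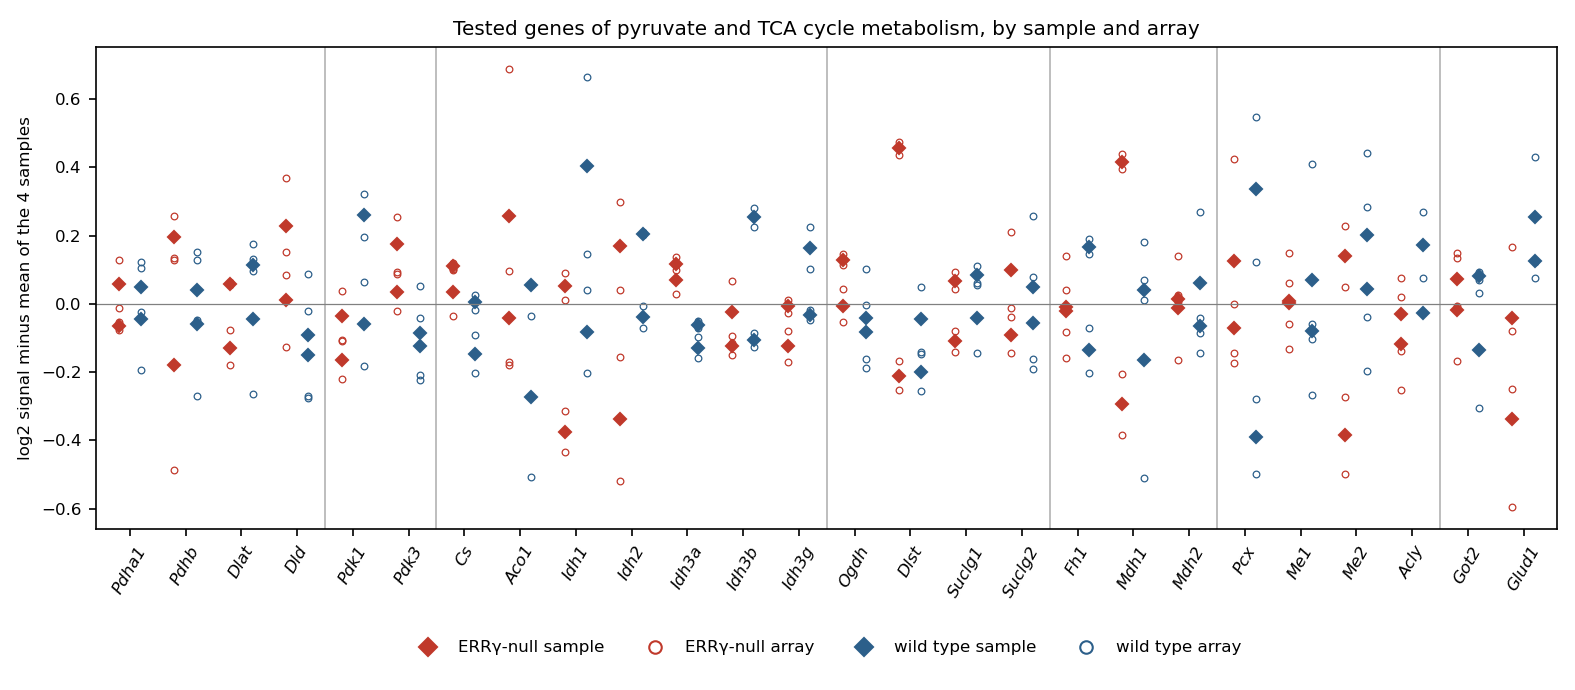
Normalized log2 signal of the 26 tested genes, each minus its own mean over the 4 samples, with ERRγ-null left of wild type within each gene. Diamonds are samples (2 per genotype) and open circles are arrays (2 per sample), and vertical lines separate functional groups. The samples of both genotypes overlap for 19 of the 26 genes.

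Both ERRγ-null samples lay above both wild-type samples for Dld, Pdk3, Cs, Idh3a and Ogdh, and below both for Acly and Glud1. These were 7 of 26 genes, or 26.9%, where the share over all genes tested was 35.1%. Higher without overlap were 5 of the 26 and 17.7% of all genes, and lower without overlap were 2 of the 26 and 17.3% of all genes. A difference larger than the gap between samples in either genotype was seen for 4 genes, Dld, Pdk3, Idh3a and Glud1. They were 15.4% of the 26, where the share over all genes was 23.4%. The spread between arrays was compared over all 26 genes together. The standard deviation (SD) of log2 differences had a median of 0.311 for the 16 array pairs that cross genotype. It was 0.341 for the 8 pairs that join the 2 samples of a genotype, and 0.279 for the 4 pairs that repeat a sample.

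**Figure D2:**
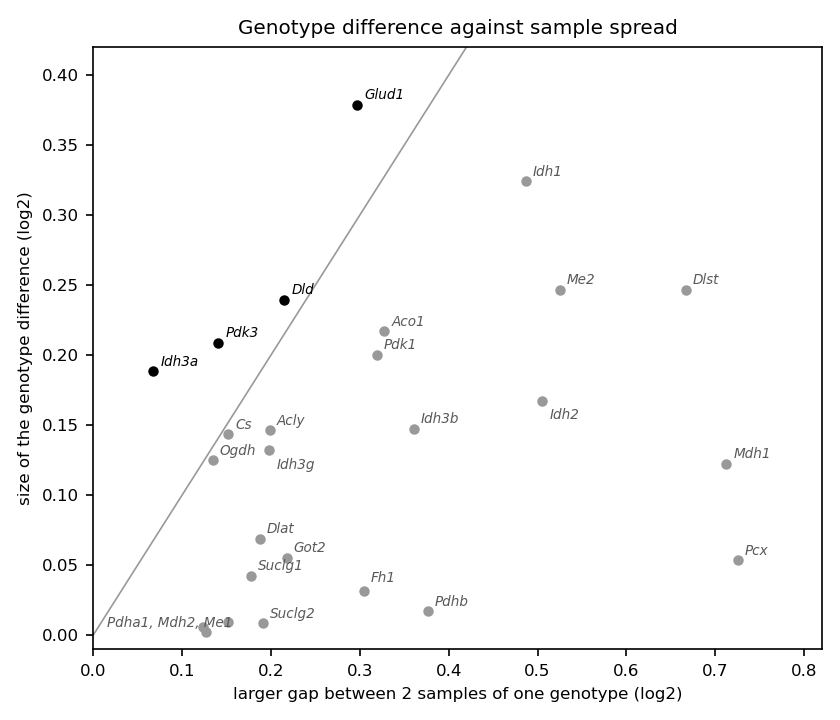
Size of the genotype difference (log2, vertical axis) of each tested gene against the larger of its 2 gaps between samples of one genotype (log2, horizontal axis). Points left of the diagonal, in black, are the 4 genes whose difference exceeded both gaps, and the farthest to the right are Pcx and Mdh1 with gaps of 0.73 and 0.71.

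Of the pyruvate dehydrogenase complex 4 genes were tested, 2 above and 2 below 0. Pdha1, the E1 alpha subunit that the kinases phosphorylate, lay at 10.19 and 10.06 in the ERRγ-null samples, against 10.08 and 10.18 in the wild-type samples. Its difference was -0.0058 (95% confidence interval from -0.34 to 0.33). Pdhb, the E1 beta subunit gene, differed by 0.02 with its brighter probe and by 0.16 with its other probe, and Dlat, the E2 acetyltransferase gene, by -0.07. Dld, which encodes the E3 dihydrolipoamide dehydrogenase shared with the oxoglutarate and branched-chain complexes, had the largest difference of this group. It lay at 7.58 and 7.80 in the ERRγ-null samples, against 7.48 and 7.42 in the wild-type samples. The genotypes did not overlap, the difference was 0.24 (SE 0.16), and the limma adjusted p was 0.826. Its arrays did overlap, at 7.44 to 7.94 in ERRγ-null and 7.29 to 7.66 in wild-type cortex, and the 2 array sets did not give one value. The difference was -0.053 with the first arrays alone and 0.53 with the b arrays alone (limma, adjusted p = 0.990 and 0.657). The probe of Pdhx, the E3-binding protein gene, was above background on no array (detection p from 0.340 to 0.729).

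Of the kinases that inactivate the complex, Pdk1 and Pdk3 could be tested. Pdk1, the isoform known to be induced by hypoxia, lay at 7.41 and 7.28 in the ERRγ-null samples, against 7.70 and 7.38 in the wild-type samples. The groups overlapped, because wild-type sample 2 lay between the null samples. The difference was -0.20 (95% confidence interval from -0.55 to 0.15). Pdk3 lay at 7.03 and 7.17 in the ERRγ-null samples, against 6.91 and 6.87 in the wild-type samples. These groups did not overlap, the difference was 0.21 (95% confidence interval from -0.12 to 0.54), and the limma adjusted p was 0.860 for Pdk3 and 0.893 for Pdk1. Pdk2, a widely expressed isoform, and Pdk4, a starvation-induced isoform known from muscle and heart as a target of estrogen-related receptors, were above background on no array. Their detection p ran from 0.0777 to 0.440 for Pdk2 and from 0.0877 to 0.439 for Pdk4. A difference in them was thus not detectable with these probes.

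The 7 genes of citrate synthase, aconitase and the isocitrate dehydrogenases split into 3 above and 4 below 0, with a median of -0.13. Cs, the citrate synthase gene, lay at 10.97 and 10.90 in the ERRγ-null samples, against 10.72 and 10.87 in the wild-type samples. The genotypes did not overlap, but the difference of 0.14 was smaller than the gap of 0.15 between the wild-type samples. Aco1, the gene of the cytosolic aconitase that doubles as iron regulatory protein 1, differed by 0.22 with overlapping samples. It had the widest disagreement between arrays of the set, 0.86 between the arrays of ERRγ-null sample 2.

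The 3 subunit genes of the NAD-dependent isocitrate dehydrogenase did not have one direction. Idh3a, the catalytic alpha subunit gene, lay at 10.56 and 10.51 in the ERRγ-null samples, against 10.38 and 10.31 in the wild-type samples. It was the steadiest probe of the set, with gaps of at most 0.08 between arrays of a sample and of 0.05 and 0.07 between samples of a genotype. All 4 ERRγ-null arrays (10.47 to 10.58) were above all 4 wild-type arrays (10.28 to 10.39). This held for 1 of the 26 genes and for 223 of all 8098 genes tested. With both directions counted, arrays that did not overlap were seen for 1 of the 26 and for 5.85% of all genes. The difference was 0.19 (SE 0.15, limma, adjusted p = 0.889). That SE is set mainly by the other genes, since limma draws each variance towards a common value. Idh3b, a regulatory subunit gene, lay at 11.30 and 11.20 in the ERRγ-null samples, against 11.58 and 11.22 in the wild-type samples, with a difference of -0.15 and overlapping groups. Idh3g, the gamma subunit gene, lay at 11.64 and 11.52 in the ERRγ-null samples, against 11.81 and 11.61 in the wild-type samples. Its brighter probe differed by -0.13 and its other probe by 0.01.

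For both NADP-dependent isocitrate dehydrogenases the gaps between samples of a genotype, 0.24 to 0.51, were larger than the genotype difference in at least 1 genotype. Idh1, the cytosolic enzyme gene, with the second lowest difference of the set, lay at 11.23 and 11.65 in the ERRγ-null samples, against 11.52 and 12.01 in the wild-type samples. The groups overlapped, and the gaps within a genotype, 0.43 in ERRγ-null and 0.49 in wild type, exceeded the difference of -0.32 (95% confidence interval from -0.73 to 0.08, limma, adjusted p = 0.781). It was -0.081 when wild-type sample 2 was left out and -0.57 when wild-type sample 1 was. It was -0.11 when ERRγ-null sample 1 was left out and -0.54 when ERRγ-null sample 2 was. Idh2, its mitochondrial counterpart, differed by -0.17 with ERRγ-null samples at 9.34 and 9.85, against wild-type samples at 9.88 and 9.64.

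The oxoglutarate dehydrogenase complex converts 2-oxoglutarate to succinyl-CoA. Ogdh, its E1 subunit gene, lay at 8.98 and 8.85 in the ERRγ-null samples, against 8.81 and 8.77 in the wild-type samples. The samples did not overlap, and the difference was 0.12 (SE 0.16, limma, adjusted p = 0.947). One of the RefSeq promoter windows of Ogdh (chr11:6291920-6292219, + strand, GRCm38.p6) is shown because it holds the motif that ERRγ binds, here on the opposite strand from base -5 to base 2 relative to the gene start. The capitals mark it, as TGACCTT.
Ogdh promoter: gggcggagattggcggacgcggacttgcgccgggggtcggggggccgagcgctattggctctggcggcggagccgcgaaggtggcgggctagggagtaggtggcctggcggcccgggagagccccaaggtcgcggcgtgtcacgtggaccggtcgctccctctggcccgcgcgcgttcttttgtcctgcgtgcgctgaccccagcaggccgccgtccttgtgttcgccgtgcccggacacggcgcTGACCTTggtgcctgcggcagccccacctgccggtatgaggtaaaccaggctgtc

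Across the 30 of the 32 genes with a RefSeq promoter window of 300 bases, the motif AAGGTCA on either strand occurred in 2, Ogdh and Got1. This is 6.67% of them, against 5.38% of the 27025 genes with such a window. The longer form TNAAGGTCA, which contains it, occurred in 0 of the 30 and in 1.43% of all. These matches describe the letters in these windows only.

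Dlst, the E2 succinyltransferase gene of the same complex, had the highest difference of the set, and it rested on 1 sample. It lay at 10.42 and 9.75 in the ERRγ-null samples, against 9.92 and 9.76 in the wild-type samples. The arrays of ERRγ-null sample 1 were 10.40 and 10.44, above the other 6 arrays, which ran from 9.71 to 10.01. The difference was 0.25 (SE 0.20, limma, adjusted p = 0.882), and it was -0.087 when that sample was left out. For the succinyl-CoA ligase, the enzyme that yields ATP or GTP in the cycle, Suclg1 of the shared alpha subunit differed by -0.04 and Suclg2 of the GTP-forming beta subunit by 0.01. A second Suclg1 probe above background gave 0.21. The third Suclg1 probe, the second Suclg2 probe and the only probe of Sucla2, the ATP-forming beta subunit gene, were above background on no array.

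For the genes of fumarase and the malate dehydrogenases, 0 of 3 had samples that did not overlap. Fh1, the fumarase gene, lay at 9.34 and 9.35 in the ERRγ-null samples, against 9.23 and 9.53 in the wild-type samples, a difference of -0.03. Mdh2, the mitochondrial malate dehydrogenase gene, lay at 10.45 and 10.42 in the ERRγ-null samples, against 10.49 and 10.37 in the wild-type samples, a difference of 0.0021 (95% confidence interval from -0.33 to 0.33). Mdh1, its cytosolic counterpart in the malate-aspartate shuttle, separated the ERRγ-null samples from each other as Dlst did. It lay at 8.24 and 7.53 in the ERRγ-null samples, against 7.87 and 7.66 in the wild-type samples. The difference was 0.12 (SE 0.20). Leaving out ERRγ-null sample 1 turned it to -0.23, and leaving out ERRγ-null sample 2 gave 0.48. In both genes ERRγ-null sample 2 lay below sample 1. Sample 2 was the one with the higher summed signal of meninges and fibroblast markers, most of it from Igf2. The part of that signal in these values was not tested. Another Mdh1 probe, above background on 2 of 4 ERRγ-null and 1 of 4 wild-type arrays and therefore not tested, ran the other way between the ERRγ-null samples. It lay at 5.66 and 6.38 in the ERRγ-null samples, against 5.58 and 6.08 in the wild-type samples. The remaining Mdh1 probe was above background on no array.

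Among pyruvate carboxylase, the malic enzymes and ATP citrate lyase, Me2 had the difference farthest from 0. The malic enzymes convert malate to pyruvate, Me1 in the cytosol and Me2 and Me3 in mitochondria. Me2 lay at 5.84 and 6.37 in the ERRγ-null samples, against 6.43 and 6.27 in the wild-type samples, and was above background on 3 of 4 ERRγ-null and 4 of 4 wild-type arrays. The groups overlapped, and the difference of -0.25 (SE 0.18, limma, adjusted p = 0.851) was 0.016 when ERRγ-null sample 1 was left out and -0.51 when ERRγ-null sample 2 was. Me1 lay at 7.81 and 7.82 in the ERRγ-null samples, against 7.88 and 7.73 in the wild-type samples, a difference of 0.01. Me3 was above background on no array (detection p from 0.392 to 0.883).

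Pcx, the pyruvate carboxylase gene, lay at 6.35 and 6.54 in the ERRγ-null samples, against 6.75 and 6.03 in the wild-type samples. The wild-type samples lay on either side of the null samples, the difference was 0.053 (SE 0.20), and the probe was above background on 4 of 4 ERRγ-null and 3 of 4 wild-type arrays. Acly, the ATP citrate lyase gene that returns citrate to cytosolic acetyl-CoA for lipid synthesis, lay at 11.67 and 11.58 in the ERRγ-null samples, against 11.67 and 11.87 in the wild-type samples. The null samples were both lower, by a margin of under 0.01 between the nearest pair, and the difference was -0.15 (95% confidence interval from -0.48 to 0.19).

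Glud1, which encodes the mitochondrial glutamate dehydrogenase that links glutamate to the cycle through 2-oxoglutarate, had the difference farthest below 0 and was the gene with an unadjusted p under 0.05. It is read by 2 probes. The brighter one lay at 8.41 and 8.71 in the ERRγ-null samples, against 8.88 and 9.01 in the wild-type samples. Means were 8.56 ± 0.21 in ERRγ-null and 8.94 ± 0.09 in wild-type cortex (SD, n = 2 each). Both null samples were therefore below both wild-type samples, and the difference of -0.38 (SE 0.16, 95% confidence interval from -0.73 to -0.03) had a limma p of 0.0347 unadjusted and 0.636 adjusted. As a fold, the ERRγ-null signal was 0.769 of that in wild type.

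The dimmer Glud1 probe gave the same direction. It lay at 6.46 and 6.46 in the ERRγ-null samples, against 6.97 and 7.12 in the wild-type samples, a difference of -0.58. In a fit of all 11568 kept probes, of which 0.00864% passed, its limma p was 0.00247 unadjusted and 0.551 adjusted. On single arrays it was between 6.27 and 6.65 in ERRγ-null and between 6.88 and 7.36 in wild-type cortex. The 4 null arrays were thus below the 4 wild-type arrays. The same held for 251 of all 8098 genes, each read by its brightest kept probe. The share over all kept probes was not counted. For the brighter probe the array ranges overlapped, at 8.16 to 8.92 in ERRγ-null and 8.83 to 9.18 in wild-type cortex.

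**Figure D3:**
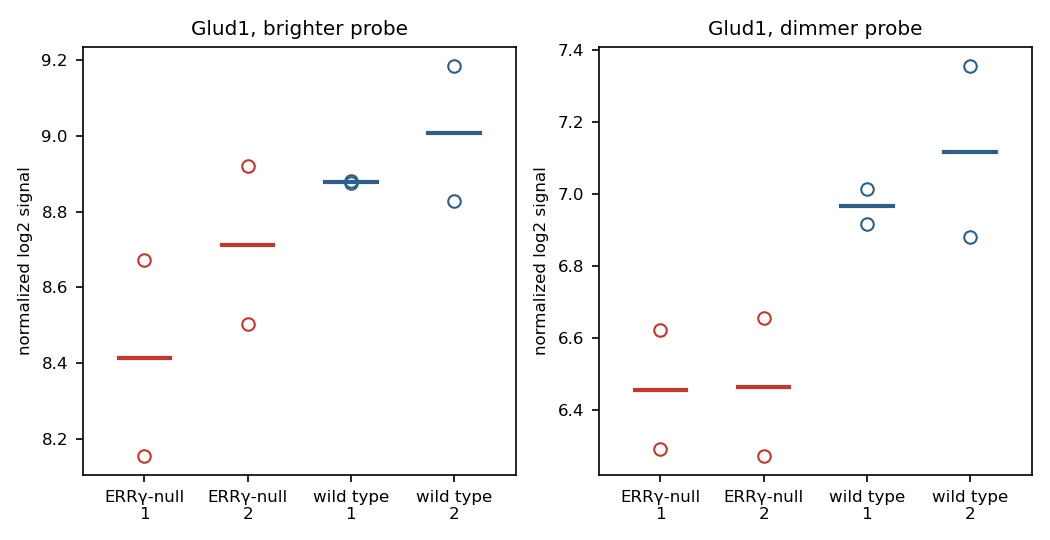
Normalized log2 signal of Glud1 on each array (circles) and as the mean of each sample (bars), ERRγ-null left and wild type right, for the brighter probe (left panel) and the dimmer probe (right panel). The sample means of the dimmer probe are 6.46 and 6.46 in ERRγ-null against 6.97 and 7.12 in wild-type cortex, and those of the brighter probe are also both lower in ERRγ-null.

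Before normalization between arrays, neither Glud1 probe separated the genotypes. The brighter one read 533, 468, 490 and 618 on the ERRγ-null arrays and 406, 510, 520 and 729 on the wild-type arrays. The dimmer one read 209, 199, 181 and 209 on the ERRγ-null arrays and 176, 212, 253 and 227 on the wild-type arrays. With median scaling in place of quantile normalization the difference of the brighter probe was -0.18, beside a median of 0.17 over all genes. Relative to that median it is -0.35. The quantile-normalized difference of that probe was -0.23 when ERRγ-null sample 1 was left out and -0.53 when ERRγ-null sample 2 was. Glutamate dehydrogenase is known to be abundant in astrocytes. The 6 astrocyte markers had a summed linear signal of 6806 and 6699 in the ERRγ-null samples, against 7378 and 6903 in the wild-type samples. Their mean log2 signal did not separate the genotypes. It was 8.07 and 8.09 in the ERRγ-null samples, which lay between the wild-type samples. Of these markers Slc1a3, Aldh1l1 and Aldoc were above background on all 8 arrays and Gfap on none. Slc1a3 lay lower in both ERRγ-null samples, but the nearest pair was almost equal. It lay at 12.009 and 12.215 in the ERRγ-null samples, against 12.316 and 12.224 in the wild-type samples. For Aldh1l1 and Aldoc the samples of the genotypes overlapped. The part of astrocyte content in the Glud1 value was not tested.

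The 300-base RefSeq promoter window of Glud1 (GRCm38.p6, chr14:34310477-34310776, + strand, from 250 bases before to 50 after the gene start) is shown because this gene had the lowest p of the set. It holds no AAGGTCA on either strand and is therefore printed without capitals.
Glud1 promoter: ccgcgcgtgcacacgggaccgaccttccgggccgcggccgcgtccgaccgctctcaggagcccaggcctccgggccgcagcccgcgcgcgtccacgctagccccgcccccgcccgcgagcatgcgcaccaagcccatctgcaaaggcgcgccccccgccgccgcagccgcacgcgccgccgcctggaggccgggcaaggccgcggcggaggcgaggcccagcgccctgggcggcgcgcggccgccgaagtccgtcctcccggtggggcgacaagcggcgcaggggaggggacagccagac

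Got2, the mitochondrial aspartate transaminase gene of the malate-aspartate shuttle, lay at 12.56 and 12.47 in the ERRγ-null samples, against 12.57 and 12.35 in the wild-type samples. The groups overlapped, and the difference was 0.06 with a 95% confidence interval from -0.28 to 0.39.

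**Figure D4:**
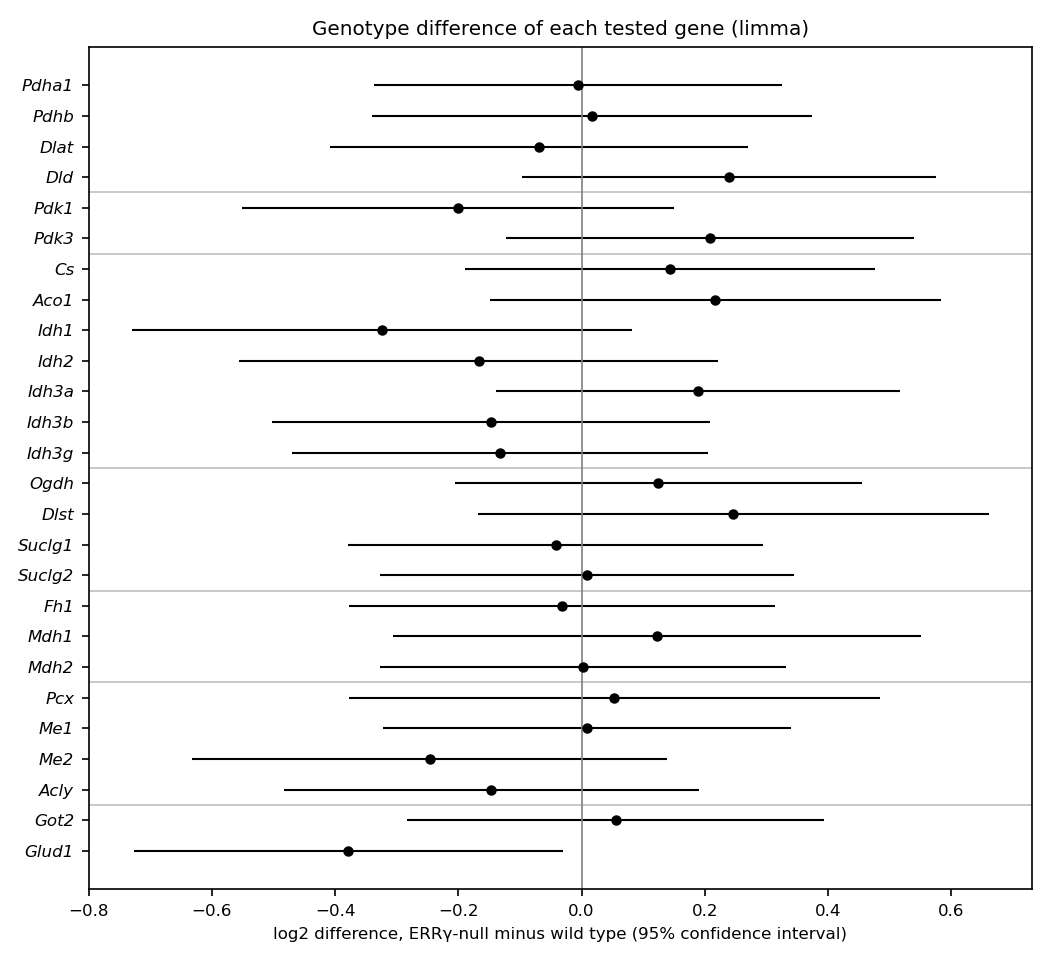
Genotype difference of each of the 26 tested genes (log2, ERRγ-null minus wild type) with its 95% confidence interval from limma, in functional groups separated by lines, n = 2 samples per genotype. The interval of Glud1 (-0.73 to -0.03) lies below 0 before adjustment, and those of the other 25 genes include 0.

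Neighbouring genes of the pathway, listed by textbook function, were looked at in the same fit. Of 46 such genes, 37 had a probe under their symbol and 27 were tested. By limma 0 passed and 3 had an unadjusted p under 0.05, all with higher values in ERRγ-null cortex. These 3 were 11.1% of the 27, where 7.22% of all genes reached such a p and 3.61% did so with higher values. The 27 differences had a median of 0.025 and split into 14 above and 13 below 0. Slc25a12, the gene of the mitochondrial aspartate-glutamate carrier that works with Got2 and Mdh2, lay at 8.88 and 8.63 in the ERRγ-null samples, against 8.31 and 8.45 in the wild-type samples, a difference of 0.38 (SE 0.16, limma, adjusted p = 0.631). Sdhd, a membrane anchor subunit gene of succinate dehydrogenase, lay at 7.59 and 7.95 in the ERRγ-null samples, against 7.57 and 7.15 in the wild-type samples, a difference of 0.41. Lipt1, a lipoyltransferase gene needed for lipoylation of the dehydrogenase E2 subunits, was above background on 3 of 4 ERRγ-null and 1 of 4 wild-type arrays. It lay at 6.20 and 5.99 in the ERRγ-null samples, against 5.63 and 5.82 in the wild-type samples, a difference of 0.36. The samples of these 3 genes did not overlap. Such genes were 7 of the 27, or 25.9%, where the share over all genes was 35.1%.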

How the data were processed

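Total RNA of newborn mouse cortex was measured on Illumina bead arrays (labels' protocols). The authors deposited 1 linear mean bead intensity per probe and array, with no normalization between arrays visible in the values, and a detection p-value beside each, per the file headers. The submitters' processing notes name GenomeStudio. A second deposited table holds the same arrays' linear intensity brought to a common distribution (column medians 142.5 to 142.7, rank correlation of 1 with the unnormalized values). The sources used here do not name its method. It served as an alternative.

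In R 4.3.3 with limma 3.58.1, neqc corrected background through the detection p-values, added an offset of 16, normalized quantiles and took log2. Probes with detection p under 0.05 on at least 4 of 8 arrays were kept (11568 of 25697). Of all probes, 23846 had 1 gene symbol, 0 several and 1851 none. A gene was its brightest kept probe (8098 genes). Of the 39 probes of the set, 30 were kept, 28 of them above background on all 8 arrays. None of the kept probes was kept through 1 genotype alone. The 2 arrays of a sample were averaged, and lmFit and eBayes compared 2 with 2 samples, with two-sided p-values adjusted by Benjamini-Hochberg over all genes (14.0 prior and 2 residual degrees of freedom). Tested on simulated data of 8098 genes, 200 of them changed, the steps for this genotype comparison recovered 17.6% of log2 changes of 0.5 and 95.9% of changes of 1.

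The replicate numbers are shared between genotypes, and same-numbered samples did not deviate together (correlation 0.01 over 8098 genes), so they were not paired. The genes and lists were chosen with earlier results of these data known. Every gene of the set is accounted for. Values by sample are given for genes with an unadjusted p under 0.05, the largest difference of each functional group, the Pdk, Idh3 and Me sets, and for further genes to complete the account. Of the pathway neighbours, those with an unadjusted p under 0.05 and samples that do not overlap are named. How far each probe separates its transcript from related sequences was not tested. Promoters are from RefSeq, GRCm38.p6, matched by symbol for 30 of 32 genes.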

Additional observations from a re-analysis of the deposited data

How the results depend on the processing

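Over 22 alternatives, the number of genes of the set past the threshold was 0 in each. With both samples of each genotype kept, the number at an unadjusted limma p under 0.05, 1 as reported, ran from 0 to 3. It was 0 on the first arrays alone, where 541 of all 8098 genes reached such a p. It was 3 with median scaling, where 1051 of 8098 did. The count past the threshold over all genes, 1 as reported, was 20 with median scaling. It was 12 when the replicate number entered the fit (replicate block), which called 0 genes of the set. It was 0 with no filter on dim probes, with probes detected on all 8 arrays, on the first arrays alone, on the b arrays alone, with robust variance estimation and with the mean of all kept probes, where limma gave between 490 and 1066 genes at an unadjusted p under 0.05. Leaving out a sample gave 0 to 22 genes, with the lone sample left in a genotype assumed to vary like the others. The count was 22 and 17 when wild-type sample 1 or 2 was left out, and 0 for both ERRγ-null samples, with 455 and 629 genes at an unadjusted p under 0.05.

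The median difference of the set was 0.18 with median scaling, which put 22 genes above and 4 below 0. That scaling moved the median of all genes to 0.17, and relative to it 14 genes lay above and 12 below. The median was -0.057 on the first arrays alone, 0.057 with the dimmest array (wild-type sample 1, first) left out, and -0.050 to 0.043 when each sample was left out, lowest for wild-type sample 2.

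Of the 26 genes, 7 (Glud1, Idh1, Idh3a, Pdk1, Pdk3, Cs and Ogdh) kept their sign in all alternatives. Some alternatives could not turn a sign, because they changed the test or the genes kept and left the difference itself unchanged. Among these were the probe filters, robust variance estimation, the replicate block and a looser threshold. How many of all genes kept their sign was not counted. Glud1 ran from -0.58 (its dimmer probe) to -0.18 (median scaling), with adjusted p from 0.551 to 0.940. The other 19, whose differences were at most 0.25 in size, turned sign at least once. Median scaling gave 0.19 for Pdha1, 0.13 for Dlat, 0.024 for Idh2, 0.016 for Idh3b, 0.017 for Idh3g, 0.12 for Suclg1, 0.16 for Fh1 and 0.013 for Acly. The first arrays alone gave -0.018 for Pdhb, -0.053 for Dld, -0.036 for Suclg2, -0.19 for Mdh2, -0.11 for Pcx and -0.21 for Me1. The b arrays alone gave 0.0038 for Pdha1, 0.057 for Dlat, -0.047 for Aco1, 0.095 for Fh1, -0.12 for Mdh1 and 0.0048 for Me2. Leaving out the dimmest array gave 0.069 for Pdha1, -0.027 for Pdhb and 0.00099 for Fh1. Cyclic loess gave -0.00036 for Mdh2. The other probe gave 0.0067 for Idh3g and 0.21 for Suclg1, whose probe mean was 0.082. Leaving out each sample in turn gave ranges of -0.067 to 0.056 for Pdha1, -0.17 to 0.21 for Pdhb, -0.16 to 0.025 for Dlat, -0.42 to 0.085 for Idh2, -0.33 to 0.033 for Idh3b, -0.087 to 0.58 for Dlst, -0.13 to 0.047 for Suclg1, -0.087 to 0.10 for Suclg2, -0.18 to 0.12 for Fh1, -0.23 to 0.48 for Mdh1, -0.061 to 0.066 for Mdh2, -0.31 to 0.42 for Pcx, -0.067 to 0.085 for Me1, -0.51 to 0.016 for Me2 and -0.054 to 0.16 for Got2. The cause of these turns was not tested. The dimness of the 9 probes that were not kept limits what can be said of Pdhx, Pdk2, Pdk4, Sucla2 and Me3.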
